A study of Homo sapiens with 31 samples.

Results

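Interferon-stimulated genes (ISGs) are the genes that a cell switches on when it senses interferon or foreign nucleic acid. A set of 41 ISGs was listed by gene symbol, with earlier results of these data known, by a rule that uses no measured value, and all 41 were found among the 19221 genes of the deposited FPKM table, in which FPKM is the number of fragments per kilobase of gene and relative to the mapped fragments of the library. The set was followed through 31 mRNA libraries of cell lines that the study used to model ovarian cancer. The study itself concedes doubt about using C13*, given its origin, and cites A2780 as an unlikely line of high-grade serous ovarian cancer. C13*, a cisplatin-resistant line proficient in homologous recombination, carried either a control shRNA (C13* shCON, n = 7) or an shRNA against CEBPB (C13* shCEBPB, n = 8), the gene of the transcription factor C/EBPβ. A2780 (n = 8) was the parent line of A2780 OlaR (n = 8), a derivative selected under rising concentrations of olaparib, an inhibitor of PARP. None of the sample labels name an interferon or a virus as a treatment, and the methods of the study speak of resistant clones for A2780 OlaR without saying whether 1 or several were sequenced. Whether libraries of a group came from separate cultures was stated only in general terms, as biological replicates, so p-values measure the spread between these libraries.

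Type I interferons bind the receptor made of IFNAR1 and IFNAR2, and the kinases JAK1 and TYK2 then phosphorylate STAT proteins. STAT2 and IRF9 are parts of the complex ISGF3, which enters the nucleus and binds interferon-stimulated response elements (ISREs) in promoters of ISGs. The induced proteins include RNA sensors, blockers of viral entry and translation, a ubiquitin-like modifier and further transcription factors, and many tumour lines keep a part of the set active without added interferon.

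Promoter windows from RefSeq (GRCh38.p14), which span 250 bases before to 50 after a gene's start, were held for 31 of the 41 ISGs. The ISRE core was searched as GAAANNGAAA on both strands and was found in 21 of these 31 (67.7%), against 4.38% of the 27305 genes with a window. The C/EBP consensus was searched as TTNNGNAA on both strands and was found in 14 of the 31 (45.2%), against 41.8% of all genes, and the pair of patterns cannot match the same letters in full. A match is a stretch of letters and not a site of binding. The following 250 bases before the start are shown because their genes carry both directions of the results, with every match to the ISRE core in capitals. IFI44 lies on the plus strand at chr1:78649539-78649788. The others are read from the minus strand, IFIH1 at chr2:162318685-162318934, GBP1 at chr1:89065209-89065458, BST2 at chr19:17405631-17405880 and IFITM3 at chr11:320861-321110.
IFI44: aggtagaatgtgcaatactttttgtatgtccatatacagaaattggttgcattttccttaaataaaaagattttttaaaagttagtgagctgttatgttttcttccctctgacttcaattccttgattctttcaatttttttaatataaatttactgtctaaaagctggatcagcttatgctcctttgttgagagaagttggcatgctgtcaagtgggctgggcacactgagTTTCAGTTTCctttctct
IFIH1: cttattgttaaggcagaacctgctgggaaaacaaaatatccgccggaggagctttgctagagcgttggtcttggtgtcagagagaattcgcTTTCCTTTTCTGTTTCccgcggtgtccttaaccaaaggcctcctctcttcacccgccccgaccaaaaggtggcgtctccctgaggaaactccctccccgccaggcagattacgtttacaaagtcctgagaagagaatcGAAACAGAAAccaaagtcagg
GBP1: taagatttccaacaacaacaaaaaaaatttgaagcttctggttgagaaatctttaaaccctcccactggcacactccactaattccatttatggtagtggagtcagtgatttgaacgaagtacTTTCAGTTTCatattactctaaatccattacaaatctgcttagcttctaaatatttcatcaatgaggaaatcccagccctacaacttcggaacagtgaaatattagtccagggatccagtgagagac
BST2: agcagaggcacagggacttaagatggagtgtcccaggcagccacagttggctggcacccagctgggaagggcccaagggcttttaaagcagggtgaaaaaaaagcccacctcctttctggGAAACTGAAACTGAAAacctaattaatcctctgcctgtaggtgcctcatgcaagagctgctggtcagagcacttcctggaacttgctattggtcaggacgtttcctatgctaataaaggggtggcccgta
IFITM3: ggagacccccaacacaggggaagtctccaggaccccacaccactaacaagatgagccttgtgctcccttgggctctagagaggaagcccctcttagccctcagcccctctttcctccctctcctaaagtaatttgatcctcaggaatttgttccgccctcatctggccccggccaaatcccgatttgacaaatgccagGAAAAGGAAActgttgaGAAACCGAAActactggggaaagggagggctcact

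Several facts of the whole series touch every result on the ISGs. Relative depth, read from the steps of low values, differed 1.38-fold between the deepest and the shallowest library. CEBPB itself ran from 75.2 to 101 FPKM (median 85.4) in C13* shCON and from 30.2 to 58.7 FPKM (median 49.5) in C13* shCEBPB, with no overlap and a log2 change of -0.87 ± 0.11 (SE). It ran from 85.6 to 111 FPKM (median 99.7) in A2780 and from 97.1 to 127 FPKM (median 113) in A2780 OlaR, and these ranges overlapped. Over 19221 genes the mean profiles on the log2(FPKM + 1) scale correlated at r = 0.996 between C13* shCON and A2780 OlaR, which the labels place in different lines, at 0.890 between C13* shCON and C13* shCEBPB and at 0.856 between A2780 and A2780 OlaR. Genes share libraries, so these values describe the groups and carry no test. The squamous markers KRT5, KRT14, KRT6A and TP63 summed to 1532 to 1805 FPKM in C13* shCON and 1735 to 2107 FPKM in A2780 OlaR, but to at most 0.316 FPKM in C13* shCEBPB and 0.191 FPKM in A2780. The sum of 6 mesenchymal markers, of which VIM was the highest in C13* shCEBPB and A2780 and CDH2 in C13* shCON and A2780 OlaR, ran from 28.0 to 32.1, from 351 to 381, from 881 to 922 and from 21.4 to 24.6 FPKM in C13* shCON, C13* shCEBPB, A2780 and A2780 OlaR. PTPRC, which marks leukocytes, had 85.9 FPKM in A2780, while CD3E was listed at 0 in every library. The sum of 5 markers of Müllerian and ovarian tissue ran from 35.7 to 41.9, from 996 to 1102, from 14.9 to 18.5 and from 27.1 to 38.6 FPKM in the same order of groups. Among these, FOLR1 had 1.20, 887, 13.3 and 0.910 FPKM and MSLN 30.7, 154, 3.15 and 25.8 FPKM. PAX8 had 6.10 and 6.002 FPKM in C13* shCON and A2780 OlaR and 0.536 and 0.555 FPKM in the other groups, and WT1 and MUC16 were at or under 0.819 FPKM on average in each group. One C13* shCON library (replicate 1) has A2780 in its cell line field, against its title. Without it 34 ISGs were still called after knockdown, beside 83.5% of all genes, and 21 of them past 2-fold, beside 29.6%. The genes tested were those of the fit with this library, so 12 of the 34 had to be lower to enter the test. Groups are called as labelled, and each direction given below holds only if the labels of the deposited columns are right, which was not tested. The part of line identity in the ISG results was not tested either.

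The 41 ISGs were a minor part of the transcriptome with a few abundant members. Their summed level was 479 FPKM (median library) in C13* shCON, 1001 FPKM in C13* shCEBPB, 810 FPKM in A2780 and 433 FPKM in A2780 OlaR. IFITM3, which blocks the entry of enveloped viruses, was the most abundant in every group. IFITM3, BST2 and IFITM2 together made up 39.7% of the sum in the median C13* shCON library, 81.2% in C13* shCEBPB, 61.6% in A2780 and 38.4% in A2780 OlaR. Without these 3 genes the order of the groups changed, and the sum was 284 FPKM in C13* shCON, 183 FPKM in C13* shCEBPB, 310.4 FPKM in A2780 and 265 FPKM in A2780 OlaR. The number of ISGs at 1 FPKM or more was 34 to 36 per library in C13* shCON, 19 to 22 in C13* shCEBPB, 29 to 32 in A2780 and 33 or 34 in A2780 OlaR. Of the 38 ISGs whose mean reached 1 FPKM in some group, 24 had their lowest mean in C13* shCEBPB. The highest mean fell in C13* shCON for 16 of the 38, in A2780 for 12, in C13* shCEBPB for 6 and in A2780 OlaR for 4.

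**Figure D1:**
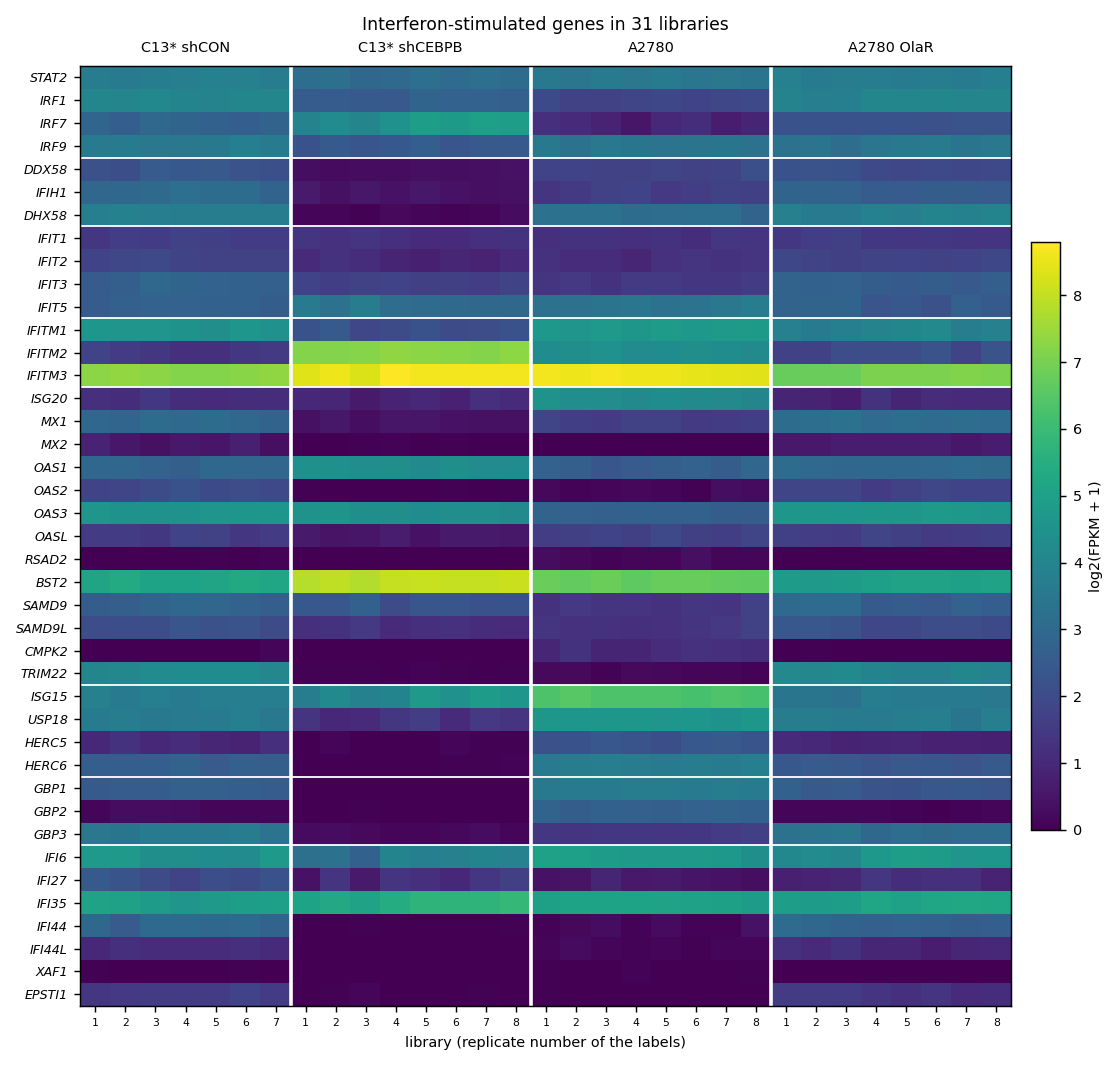
Level of the 41 interferon-stimulated genes (rows, ordered by role) in the 31 libraries (columns, numbered by replicate within each labelled group), as log2(FPKM + 1) in colour. The columns of C13* shCON and A2780 OlaR look alike, and 24 genes have their lowest mean in C13* shCEBPB.

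The first comparison asks how ISG expression differed after C/EBPβ knockdown in C13*. RNA sensors, guanylate binding proteins and most antiviral effectors were lower in C13* shCEBPB, while IFITM2, BST2, IRF7, OAS1 and IFITM3 were higher by at least 2-fold. Genes were tested if they reached 1 FPKM in at least 7 of the 15 libraries, which 34 of the 41 ISGs did. By limma on log2(FPKM + 1), with Benjamini-Hochberg adjustment over 12006 genes and an adjusted p under 0.05, all 34 that were tested passed, 8 higher and 26 lower. In the same test 84.7% of all genes passed, 38.9% higher and 45.7% lower, so passing the test sets the ISGs little apart. With a change of at least 2-fold on the log2(FPKM + 1) scale added, 22 of the 34 (64.7%) passed against 29.5% of all genes, 5 higher (12.7% of all genes) and 17 lower (16.7% of all genes). The median log2 change was -0.998 over the 34 and -0.07 over all genes tested. In 30 of the 34 the groups did not overlap, as for 66.0% of all genes. Of the 34, 12 reached 1 FPKM in C13* shCON alone (DDX58, DHX58, IFIH1, GBP1, GBP3, TRIM22, MX1, OAS2, OASL, HERC6, IFI44 and EPSTI1), so that they had to be lower to enter the test, and no p is given for them. Without such genes 11 of 22 ISGs (50%) were past 2-fold, 5 higher and 6 lower, beside 21.5% of the 10638 genes left, and the median log2 change was -0.39 over the 22.

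Among the transcription factors, STAT2, IRF9 and IRF1 fell and IRF7 rose. STAT2 ran from 11.8 to 13.4 FPKM (median 12.1) in C13* shCON and from 6.58 to 8.45 FPKM (median 7.805) in C13* shCEBPB. IRF9, the DNA-binding subunit of ISGF3, ran from 10.4 to 13 FPKM (median 11.5) and from 3.67 to 5.14 FPKM (median 4.42). Every knockdown library lay below every control library for both, with log2 changes of -0.62 ± 0.05 (SE) and -1.20 ± 0.06 (SE) and adjusted p = 4.96e-09 and 1.56e-12 (limma). IRF1, which is induced by interferon gamma and activates many ISGs, ran from 14.3 to 16.1 FPKM (median 15.3) in controls and from 4.52 to 6.13 FPKM (median 5.20) after knockdown, a fall of 2.88-fold in the means (log2 change -1.37 ± 0.06 (SE), adjusted p = 1.78e-13). IRF7, the main activator of interferon alpha genes, ran from 5.17 to 6.60 FPKM (median 5.96) in controls and from 14.4 to 30.3 FPKM (median 23.7) after knockdown. Its groups did not overlap either, and the means rose 3.90-fold (log2 change 1.75 ± 0.15 (SE), adjusted p = 3.72e-09). Reads of IRF9 and IRF1 could come in part from overlapping genes, since 1544 of the 6471 exonic bases of IRF9 lie in another gene of the same strand and 2805 of the 12265 bases of IRF1 in genes of the opposite strand (GENCODE 44), and strand use was not stated.

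The 3 cytosolic sensors of double-stranded RNA all fell to under 1 FPKM. DHX58 (LGP2) ran from 11.8 to 13.4 FPKM (median 12.3) in C13* shCON and from 0.0368 to 0.225 FPKM (median 0.106) in C13* shCEBPB. IFIH1 (MDA5) ran from 5.98 to 8.36 FPKM (median 7.16) and from 0.287 to 0.552 FPKM (median 0.360). The lowest control library exceeded the highest knockdown library by far in both genes, with log2 changes of -3.60 ± 0.04 (SE) and -2.54 ± 0.06 (SE), and all 3 sensors entered the test through C13* shCON alone. DDX58 (RIG-I), which shares 4471 of its 10345 exonic bases with another annotated gene of the same strand, fell from 3.94 ± 0.560 FPKM (SD, n = 7) to 0.260 ± 0.0408 FPKM (SD, n = 8).

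The IFITM genes, which sit side by side on chromosome 11 and restrict virus entry at membranes, split (positions are those of GENCODE 44 on GRCh38). IFITM2 (chr11:303655-309397) ran from 1.28 to 2.39 FPKM (median 1.68) in C13* shCON and from 142 to 162 FPKM (median 147) in C13* shCEBPB. This was an 86.7-fold rise in the means and the largest change among the 34 ISGs tested (log2 change 5.80 ± 0.07 (SE), adjusted p = 1.96e-21, limma). IFITM1 (chr11:310041-315272), its neighbour, ran from 19.3 to 23.9 FPKM (median 23.0) and from 2.62 to 4.59 FPKM (median 3.45), a fall of 6.46-fold (log2 change -2.39 ± 0.08 (SE)). IFITM3 (chr11:319676-329475) rose 2.52-fold, from 153 ± 8.78 FPKM (SD, n = 7) to 385 ± 39.5 FPKM (SD, n = 8). None of the 3 had overlapping groups. The family is near-identical in sequence, and the way its shared reads were assigned was not given in the sources used here, so the split between IFITM2 and IFITM3 is uncertain.

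Of the other antiviral effectors, 10 of 13 were tested, of which 2 were higher and 8 lower, beside 38.9% and 45.7% of all genes. TRIM22, MX1, OAS2 and OASL reached 1 FPKM in C13* shCON alone, so they had to be lower to enter the test. TRIM22, an antiviral ubiquitin ligase, ran from 15.2 to 18.5 FPKM (median 18.1) in C13* shCON and from 0.00882 to 0.0668 FPKM (median 0.0350) in C13* shCEBPB, the largest fall among the ISGs tested (log2 change -4.13 ± 0.05 (SE)). MX1, a GTPase that traps viral nucleocapsids, ran from 5.98 to 7.67 FPKM (median 6.82) and from 0.267 to 0.466 FPKM (median 0.335) (log2 change -2.52 ± 0.05 (SE)). BST2 (tetherin), which holds budding virus at the cell surface, went the other way and ran from 33.5 to 40.3 FPKM (median 33.9) in controls and from 222 to 274 FPKM (median 259.8) after knockdown. Its means rose 7.04-fold (log2 change 2.78 ± 0.06 (SE), adjusted p = 2.54e-18). The oligoadenylate synthetases, which activate RNase L, divided within 1 gene cluster on chromosome 12. OAS1 rose 3.03-fold to 19.1 ± 1.07 FPKM (SD, n = 8), OAS2 fell from 2.95 ± 0.404 FPKM (SD, n = 7) to 0.0119 ± 0.0165 FPKM (SD, n = 8), and OAS3 fell only from 22.5 to 19.6 FPKM with overlapping groups. With libraries 1 to 3 alone OAS3 and SAMD9 did not pass (log2 changes -0.05 and -0.18, adjusted p = 0.546 and 0.142, limma). SAMD9L, SAMD9, OASL and ISG20 passed the test at less than 2-fold on the tested scale, with log2 changes of -0.94, -0.42, -0.99 and -0.24. The ISG20 change turned to 0.0405 with quantile normalization (adjusted p = 0.603, limma). MX2 (0.501 and 0.0179 FPKM), RSAD2 and CMPK2 were too low to be tested, and the last 2 were listed at 0 in every C13* shCEBPB library.

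In the IFIT family, whose proteins bind viral RNA and limit translation, IFIT3 fell 2.51-fold, to 2.27 ± 0.180 FPKM (SD, n = 8). IFIT2 and IFIT1 fell by less than 2-fold on the tested scale (log2 changes -0.79 and -0.35), and IFIT5 rose from 5.47 to 8.44 FPKM (log2 change 0.52). The 4 genes lie in 1 cluster on chromosome 10, and none had overlapping groups, but with quantile normalization IFIT1 did not pass (log2 change -0.07, adjusted p = 0.298, limma).

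The ISG15 system conjugates the ubiquitin-like protein ISG15 to other proteins. ISG15 itself ran from 11.2 to 13.3 FPKM (median 12.5) in C13* shCON and from 12.1 to 27.7 FPKM (median 18.9) in C13* shCEBPB, and although the test passed (log2 change 0.56 ± 0.15 (SE), adjusted p = 0.00203, limma), the groups overlapped and libraries 1 to 3 alone did not pass (log2 change 0.17, adjusted p = 0.186). USP18, which removes ISG15 and restrains the receptor, ran from 10.4 to 12.4 FPKM (median 11.4) and from 1.02 to 1.998 FPKM (median 1.57), a fall of 7.64-fold. HERC6, a relative of the ISG15 ligase HERC5, ran from 4.72 to 5.90 FPKM (median 5.23) and from 0 to 0.0601 FPKM (median 0.0130) (log2 change -2.62 ± 0.04 (SE)). Neither USP18 nor HERC6 had overlapping groups, while HERC5 was not tested, at 1.09 and 0.0377 FPKM.

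Guanylate binding proteins, GTPases that act on intracellular pathogens, were at or near 0 after knockdown. GBP3 ran from 9.15 to 12.1 FPKM (median 11.4) in controls and from 0.0917 to 0.232 FPKM (median 0.162) after knockdown (log2 change -3.35 ± 0.06 (SE)). GBP1 ran from 4.68 to 5.55 FPKM (median 4.93) and was listed at 0 in 7 of the 8 knockdown libraries, with 0.00785 FPKM in the other (log2 change -2.60 ± 0.04 (SE)). GBP2 was low in both groups (0.153 and 0.0123 FPKM) and was not tested. Of the remaining induced genes, IFI44 ran from 4.76 to 7.11 FPKM (median 6.93) and was listed at 0 in 6 of the 8 knockdown libraries, with at most 0.0297 FPKM in the others (log2 change -2.89 ± 0.06 (SE)). EPSTI1 fell from 1.93 to 0.0249 FPKM, IFI27 from 3.41 to 1.25 FPKM and IFI6 from 21.9 to 11.6 FPKM. IFI35 rose from 28.6 to 44.8 FPKM (log2 change 0.61) but did not pass with libraries 1 to 3 alone (log2 change 0.17, adjusted p = 0.0788, limma). IFI44L, at 1.17 FPKM in controls, was listed at 0 in every knockdown library, as was XAF1, which reached at most 0.0285 FPKM in controls. In exact two-sided permutation tests of single genes, 7 against 8 libraries allow no p under 0.000155. Among the 22 ISGs that did not enter the test through C13* shCON alone, the highest permutation p was 0.00979, for ISG20. The permutation tests were not run over all genes, so no share stands beside them.

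**Figure D2:**
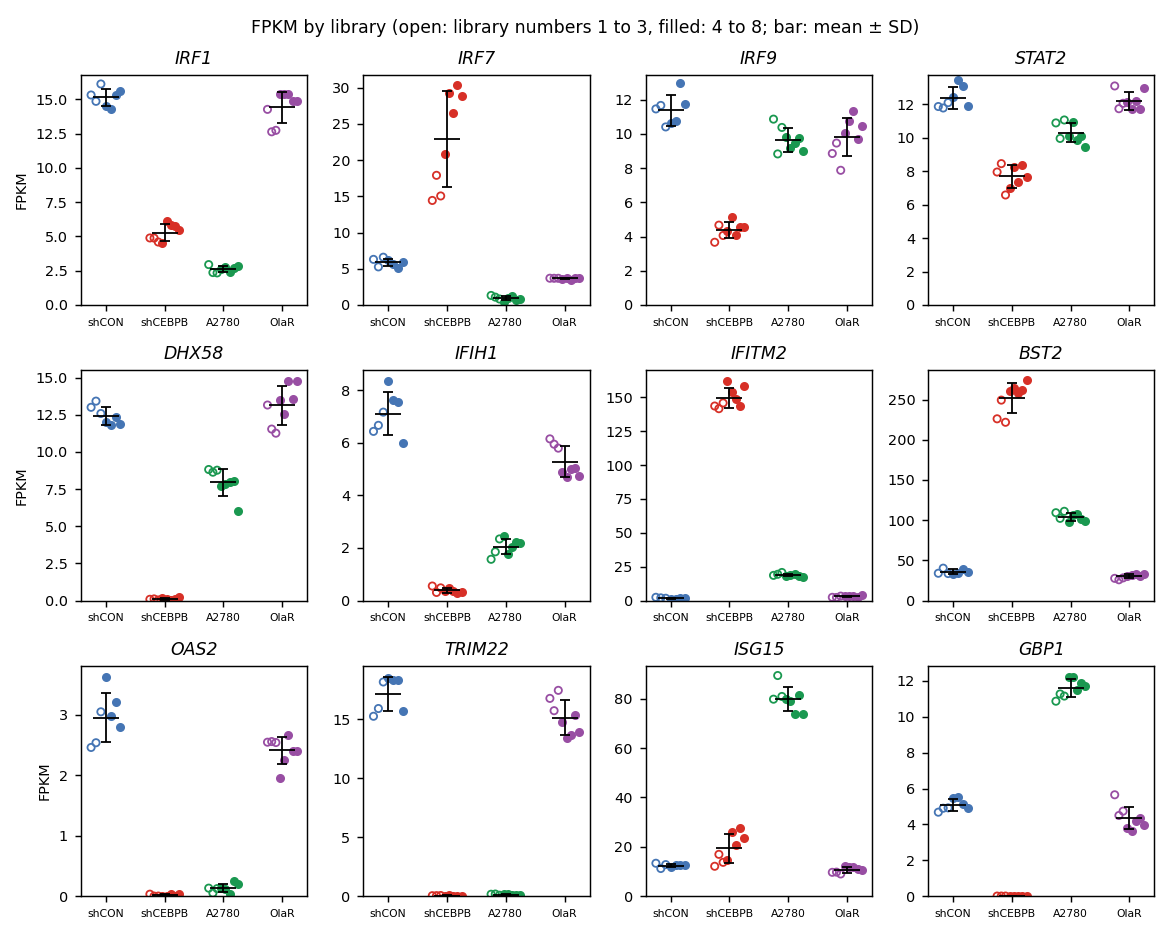
FPKM of 12 interferon-stimulated genes in each library of the 4 groups (shCON and shCEBPB are C13*, OlaR is A2780 OlaR), with open points for libraries numbered 1 to 3 in the library codes, filled points for 4 to 8, and bars for mean ± SD. IFITM2 and BST2 are highest in C13* shCEBPB and ISG15 and GBP1 in A2780, while in all 12 panels C13* shCON and A2780 OlaR stand less than 2-fold apart in the means.

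The second comparison asks how ISG expression differed between A2780 OlaR and A2780. Here no single direction prevailed, with TRIM22, IFI44, IRF1, OAS3, GBP3 and OAS2 higher and ISG20, ISG15, GBP2, IFITM2, BST2 and IFITM3 lower in A2780 OlaR. Of 35 ISGs tested, 32 passed by limma, 19 higher and 13 lower, beside 89.8% of the 12458 genes tested, 40.1% higher and 49.7% lower. With at least 2-fold added, 21 of the 35 (60%) passed against 35.7% of all genes, 12 higher (15.5% of all genes) and 9 lower (20.1% of all genes). The median log2 change was 0.23 over the 35 and -0.12 over all genes tested. In 29 of the 35 the groups did not overlap, as for 74.1% of all genes, and 5 entered the test through 1 group alone. Without these 5 (TRIM22, IFI44, OAS2 and EPSTI1, high in A2780 OlaR, and GBP2, high in A2780), for which no p is given, 16 of 30 ISGs (53.3%) were past 2-fold, 8 in each direction, beside 26.8% of the 10752 genes left.

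IRF1 and IRF7 were higher in A2780 OlaR, and STAT2 and IRF9 differed little. IRF1 ran from 2.34 to 2.95 FPKM (median 2.63) in A2780 and from 12.6 to 15.4 FPKM (median 14.8) in A2780 OlaR, a 5.51-fold rise (log2 change 2.09 ± 0.05 (SE), adjusted p = 2.09e-18, limma). IRF7 ran from 0.451 to 1.32 FPKM (median 0.920) and from 3.51 to 3.77 FPKM (median 3.69), a 3.99-fold rise. Neither gene had overlapping groups. STAT2 ran from 9.45 to 11.1 FPKM (median 10.1) and from 11.7 to 13.1 FPKM (median 12.1), a small change without overlap (log2 change 0.23 ± 0.04 (SE)). IRF9 ran from 8.83 to 10.9 FPKM (median 9.61) and from 7.87 to 11.3 FPKM (median 9.87) and did not pass (log2 change 0.02 ± 0.06 (SE), adjusted p = 0.806, limma). Among the RNA sensors, IFIH1 rose 2.57-fold, from 2.05 ± 0.301 FPKM (SD, n = 8) to 5.28 ± 0.586 FPKM (SD, n = 8). DHX58 rose from 7.97 to 13.1 FPKM without overlap, and DDX58 from 2.51 to 3.10 FPKM with overlap, a call that libraries 4 to 8 alone did not give (adjusted p = 0.343, limma).

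All 3 IFITM genes were lower in A2780 OlaR. IFITM2 ran from 17.6 to 20.7 FPKM (median 18.5) in A2780 and from 2.26 to 3.75 FPKM (median 3.24) in A2780 OlaR, and IFITM3 ran from 337 to 409 FPKM (median 379) and from 108 to 140.2 FPKM (median 132). The groups stood apart in both, with falls of 6.19-fold and 2.99-fold in the means (adjusted p = 1.96e-16 and 2.98e-15, limma). IFITM1 fell from 25.4 to 13.7 FPKM. BST2 also fell, and ran from 97.5 to 111 FPKM (median 104) and from 25.8 to 32.8 FPKM (median 30.7) without overlap, 3.46-fold lower in the means.

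TRIM22 and the OAS genes were among the effectors that rose. TRIM22 ran from 0.0543 to 0.172 FPKM (median 0.128) in A2780 and from 13.4 to 17.4 FPKM (median 15.0) in A2780 OlaR, the largest change among the ISGs tested (log2 change 3.85 ± 0.05 (SE)). OAS3 ran from 5.01 to 6.01 FPKM (median 5.58) and from 23.4 to 26.3 FPKM (median 24.2), a 4.41-fold rise. OAS2 ran from 0.0382 to 0.250 FPKM (median 0.127) and from 1.95 to 2.66 FPKM (median 2.47). OAS1 rose only from 5.31 to 7.07 FPKM. OAS1 and OAS3 passed as higher without overlap, beside 40.1% of all genes higher and 74.1% without overlap. TRIM22 and OAS2 entered the test through A2780 OlaR alone, so they had to be higher and could not overlap. MX1 rose 3.68-fold to 7.79 ± 0.445 FPKM (SD, n = 8), SAMD9 3.59-fold to 5.88 ± 1.27 FPKM (SD, n = 8) and SAMD9L 2.18-fold. ISG20, an exonuclease for viral RNA, went down and ran from 15.0 to 21.3 FPKM (median 17.9) in A2780 and from 0.648 to 1.42 FPKM (median 0.978) in A2780 OlaR, 18.0-fold lower in the means (log2 change -3.25 ± 0.07 (SE)). OASL did not pass (2.29 and 2.10 FPKM). MX2 was listed at 0 in every A2780 library and averaged 0.577 FPKM in A2780 OlaR. RSAD2 showed the reverse, listed at 0 in every A2780 OlaR library with 0.133 FPKM in A2780, and CMPK2, its neighbour on chromosome 2, had 1.14 FPKM in A2780 and 0.00302 FPKM in A2780 OlaR. Those 3 genes were not tested.

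The IFIT genes moved less, with IFIT3 the only one of the 4 past 2-fold, from 1.68 ± 0.166 FPKM (SD, n = 8) to 5.24 ± 0.530 FPKM (SD, n = 8). IFIT2 and IFIT1 were higher (log2 changes 0.59 and 0.17) and IFIT5 was lower (-0.84), but IFIT1 did not pass with libraries 4 to 8 alone (adjusted p = 0.0761, limma). All 4 genes of the ISG15 system passed as lower, as 49.7% of all genes did, and 3 of them by at least 2-fold (20.1% of all genes). ISG15 ran from 73.8 to 89.5 FPKM (median 80.0) in A2780 and from 8.97 to 12.2 FPKM (median 10.8) in A2780 OlaR, 7.46-fold lower in the means (log2 change -2.79 ± 0.06 (SE), adjusted p = 1.22e-19, limma). HERC5, HERC6 and USP18 fell 4.50-fold, 2.74-fold and 1.998-fold, and none of the 4 had overlapping groups, beside 74.1% of all genes without overlap. GBP2 ran from 5.11 to 6.03 FPKM (median 5.63) and from 0.0119 to 0.115 FPKM (median 0.0808), and GBP1 fell from 11.6 to 4.35 FPKM. GBP3, in the same cluster on chromosome 1, rose and ran from 1.56 to 2.17 FPKM (median 1.70) and from 6.62 to 9.98 FPKM (median 7.91). GBP1 and GBP3 thus changed in opposite directions without overlap. GBP2 entered the test through A2780 alone, so it had to be lower and could not overlap.

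Among the remaining induced genes, IFI44 ran from 0.0552 to 0.356 FPKM (median 0.111) in A2780 and from 5.08 to 7.34 FPKM (median 5.69) in A2780 OlaR (log2 change 2.59 ± 0.07 (SE)). EPSTI1 was listed at 0 in 5 of the 8 A2780 libraries and averaged 1.55 FPKM in A2780 OlaR. IFI6 ran from 20.1 to 31.5 FPKM (median 26.0) and from 15.9 to 28.6 FPKM (median 23.3), with overlap, and its adjusted p of 0.0427 (limma) was lost in several alternatives. The exact two-sided permutation p of IFI6 was 0.0678. IFI35 did not pass (31.7 and 32.8 FPKM). IFI27 (0.460 and 1.10 FPKM), IFI44L (0.106 and 1.04 FPKM) and XAF1 were not tested.

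**Figure D3:**
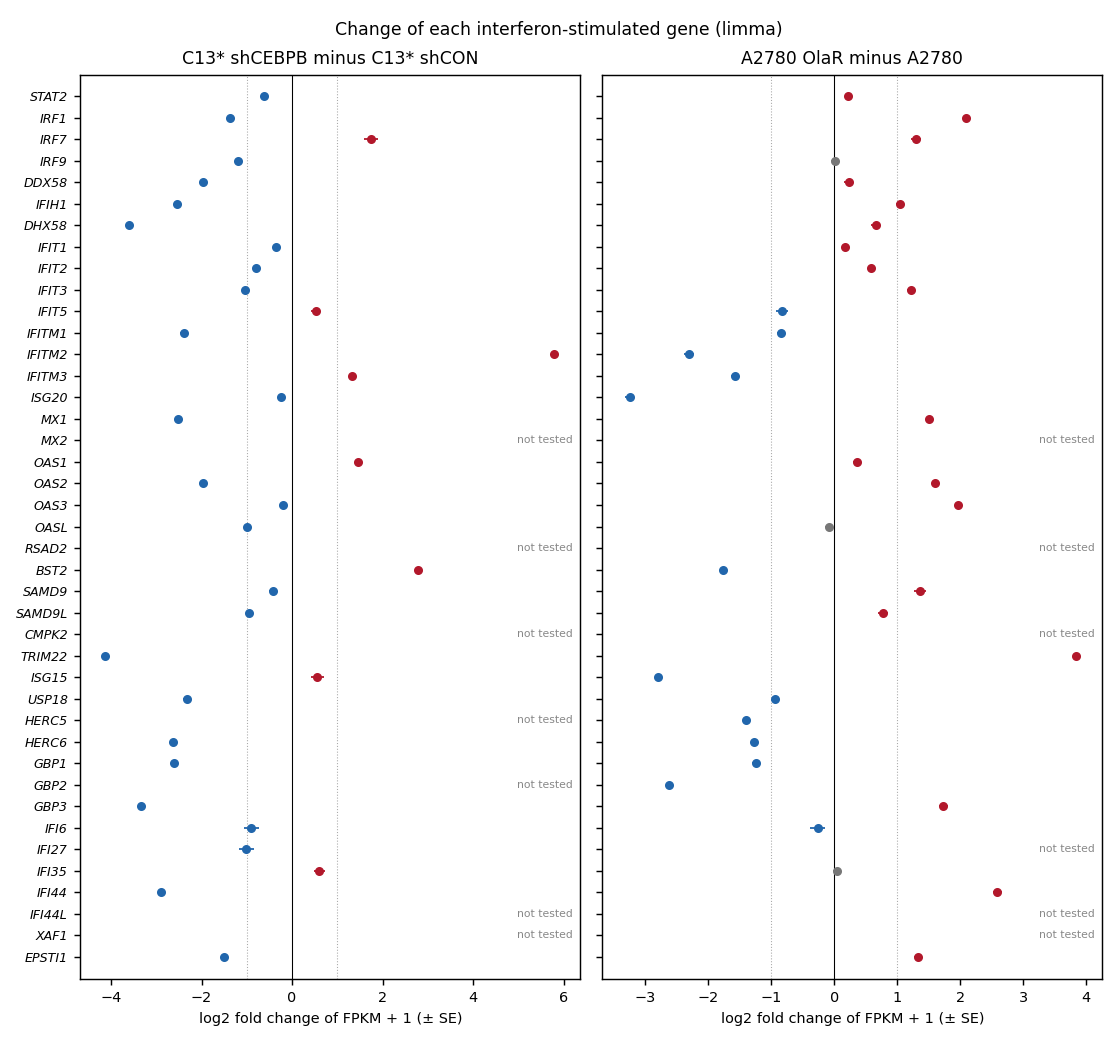
Log2 change of FPKM + 1 with its SE (limma) for each of the 41 interferon-stimulated genes, C13* shCEBPB minus C13* shCON on the left and A2780 OlaR minus A2780 on the right, red for higher, blue for lower and grey for not passing at an adjusted p under 0.05, with dotted lines at 2-fold and the genes under the level filter marked as not tested. Left, 26 of 34 genes lie below 0, beside 45.7% of all genes called lower, and 12 of the 26 had to be lower to enter the test. Right, 19 of 35 are higher and 13 lower, beside 40.1% and 49.7% of all genes, and 5 of the 35 entered the test through 1 group alone.

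Set side by side, the 2 comparisons put 9 ISGs past 2-fold on the log2(FPKM + 1) scale as lower after knockdown and higher in A2780 OlaR. These were TRIM22, IFI44, IRF1, GBP3, OAS2, MX1, EPSTI1, IFIT3 and IFIH1. In the knockdown comparison, TRIM22, IFI44, GBP3, OAS2, MX1, EPSTI1 and IFIH1 reached 1 FPKM in C13* shCON alone, so they had to be lower. TRIM22, IFI44, OAS2 and EPSTI1 entered the olaparib test through A2780 OlaR alone, so they had to be higher there. The share of all genes with this pair of directions was not computed. BST2, IFITM2 and IFITM3 had the opposite pair of directions, higher after knockdown and lower in A2780 OlaR. GBP1 and HERC6 were lower in both, and IRF7 was higher in both. GBP1, HERC6, DDX58 and DHX58 likewise entered the knockdown test through C13* shCON alone. DDX58, DHX58, IFITM1, IRF9 and USP18 passed 2-fold in the knockdown comparison alone, as did OAS1, and OAS3, SAMD9, ISG15 and ISG20 in the olaparib comparison alone, without a test of the difference between comparisons. IFI35, IFI6, IFIT1, IFIT2, IFIT5, OASL, SAMD9L and STAT2 passed 2-fold on that scale in neither, and CMPK2, IFI44L, MX2, RSAD2 and XAF1 were tested in neither. The comparisons share no library, but C13* shCON and A2780 OlaR stand on opposite sides of them.

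The ISG levels of those 2 groups were close, as were their whole profiles. Between C13* shCON and A2780 OlaR the 41 mean levels correlated at r = 0.987 on the log2(FPKM + 1) scale. Of 36 ISGs at 1 FPKM or more in either mean, 1 (2.78%) differed by at least 2-fold, beside 0.593% of 11637 genes. That gene was IFI27, a mitochondrial protein of the interferon response, with 3.41 ± 0.702 FPKM (SD, n = 7) and 1.10 ± 0.320 FPKM (SD, n = 8). TRIM22 had 17.1 and 15.1 FPKM, IFI44 6.53 and 5.92 FPKM and DHX58 12.4 and 13.1 FPKM. By contrast, C13* shCON and C13* shCEBPB, which the labels place in 1 line, differed more. At least 2-fold apart were 24 of 36 ISGs (66.7%), beside 29.6% of 12236 genes. Between A2780 and A2780 OlaR it was 22 of 38 ISGs (57.9%), beside 35.7% of 12719 genes. These counts describe group means and carry no test.

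**Figure D4:**
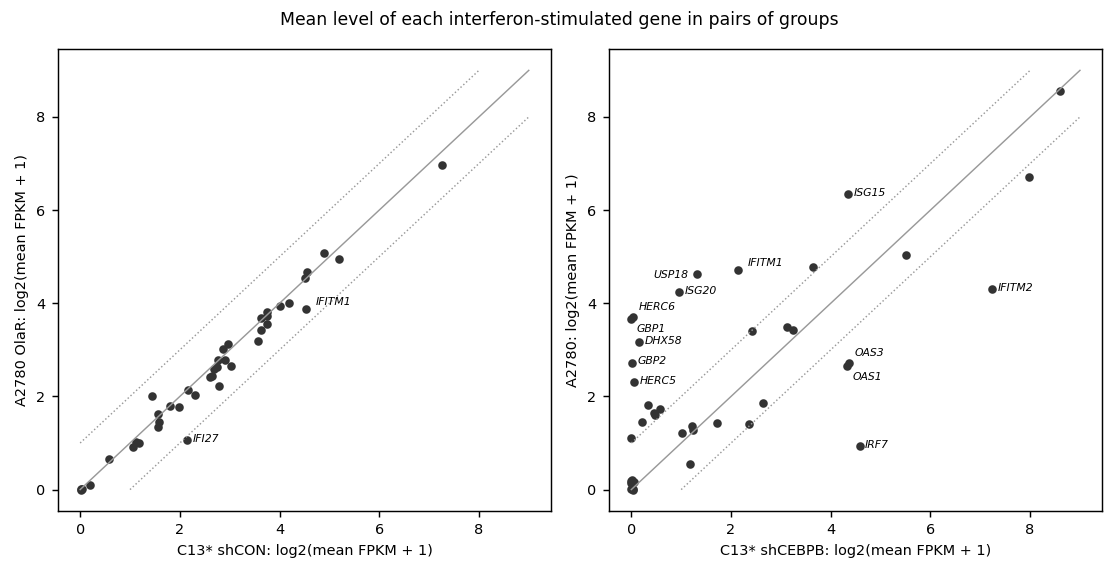
Mean level of each of the 41 interferon-stimulated genes, as log2(mean FPKM + 1), in C13* shCON against A2780 OlaR (left) and in C13* shCEBPB against A2780 (right), with the line of equal levels and dotted lines 1 unit to either side. On the left only IFI27 lies beyond a dotted line, while on the right IFITM2 and IRF7 lie far to the C13* shCEBPB side and GBP1, HERC6 and ISG15 to the A2780 side.

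Within 2 of the groups, ISG levels also followed the number in the library codes. Genes were counted in a group if their mean reached 1 FPKM in libraries 1 to 3 or in libraries 4 to 8. In A2780 OlaR, these ranges did not overlap for 21 of the 35 ISGs counted (60%), near the 57.0% of all genes. There 8 were higher in libraries 4 to 8, among them BST2, IFITM3, ISG15 and IFI6, and 13 were lower, among them TRIM22, IFIH1, DDX58 and IFI44. In C13* shCEBPB it was 8 of 22 (36.4%, all genes 53.2%). IRF7 averaged 15.8 FPKM in libraries 1 to 3 and 27.2 FPKM in libraries 4 to 8 of C13* shCEBPB, and IFI6 7.74 and 13.9 FPKM. In A2780 it was 4 of 32 (12.5%, all genes 20.7%), and in C13* shCON 2 of 36 (5.56%, all genes 4.82%). CEBPB averaged 37.8 FPKM in libraries 1 to 3 and 52.8 FPKM in libraries 4 to 8 of C13* shCEBPB. The labels do not say what the numbers stand for, and their part in the results was not tested beyond the fits within each range. With libraries 1 to 3 alone the IRF7 log2 change after knockdown was 1.25, and with libraries 4 to 8 alone it was 2.05. The median coefficient of variation of ISGs at 1 FPKM or more was 15.5% in C13* shCEBPB and 9.72% to 10.9% in the other groups.

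Upstream of the ISGs, interferons themselves were near 0. None of 21 interferon genes passed the level filter in either comparison, and the highest value was 1.40 FPKM, for IFNE in an A2780 OlaR library. IFNB1 was at most 0.339 FPKM, in C13* shCON. Of 11 genes for receptors, kinases and STAT proteins that were tested, 8 were lower and 2 higher after knockdown (90.9% called, all genes 84.7%), with 1 past 2-fold (9.09%, all genes 29.5%). This was IFNLR1, the receptor chain of interferon lambda, which fell from 3.79 to 0.656 FPKM. IFNLR1 reached 1 FPKM in C13* shCON alone, so it had to be lower to enter the test. In the olaparib comparison 3 of the 11 were higher and 5 lower (72.7% called, all genes 89.8%). STAT3 alone was past 2-fold (24.8 and 70.8 FPKM), 9.09% beside 35.7% of all genes.

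Sensors and adaptors of foreign nucleic acid outside the set were lower after knockdown in 10 of 15 genes tested and higher in 2, with 7 lower by at least 2-fold. The 80% called is near the 84.7% of all genes, and 46.7% were past 2-fold beside 29.5%. STING (TMEM173), the adaptor of the DNA sensor cGAS, fell from 12.6 ± 1.33 FPKM (SD, n = 7) to 0.854 ± 0.340 FPKM (SD, n = 8), and cGAS (MB21D1) from 27.0 to 11.3 FPKM. TLR3, the endosomal RNA receptor, fell from 7.35 to 0.132 FPKM, and the DNA sensor IFI16 from 27.0 to 8.48 FPKM. TLR3 entered this test through C13* shCON alone and so had to be lower. In the comparison of A2780 OlaR with A2780, 10 of 15 were higher and 4 lower, with 4 past 2-fold, each higher. The shares, 93.3% called and 26.7% past 2-fold, are near or under the 89.8% and 35.7% of all genes. STING had 0.184 ± 0.0711 FPKM (SD, n = 8) in A2780 and 16.3 ± 1.41 FPKM (SD, n = 8) in A2780 OlaR, cGAS 0.0860 and 22.8 FPKM, IFI16 2.38 and 37.2 FPKM, and TREX1, the nuclease that removes cytosolic DNA, 2.85 and 19.2 FPKM. Neither STING nor cGAS had overlapping groups in either comparison. STING and cGAS entered the olaparib test through A2780 OlaR alone and so had to be higher there.

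A further list held 32 interferon-responsive genes. Of 29 tested after knockdown, 26 were lower, 19 of them by at least 2-fold, and 3 higher, 1 of them by at least 2-fold. Of all genes 45.7% were lower and 16.7% lower by at least 2-fold, and 7 of the 29 reached 1 FPKM in 1 group alone. UBE2L6, the conjugating enzyme for ISG15, averaged 93.9 FPKM in C13* shCON and was listed at 0 in every C13* shCEBPB library, with 38.2 and 101 FPKM in A2780 and A2780 OlaR. CASP1, the protease of inflammasomes, fell from 21.3 to 0.486 FPKM, the secreted LGALS3BP from 238 to 20.9 FPKM and APOL6 from 8.29 to 0.0833 FPKM. IFI30, a lysosomal thiol reductase, rose from 102 to 222 FPKM. In the olaparib comparison 21 of 29 were higher, 10 of them by at least 2-fold, and 5 lower, 1 of them by at least 2-fold. The 89.7% called and 37.9% past 2-fold are close to the 89.8% and 35.7% of all genes. CASP1 went from 0.00849 to 26.0 FPKM, PARP12 from 0.00357 to 7.76 FPKM and SLFN5 from 1.27 to 15.2 FPKM, while TNFSF10 (TRAIL) fell from 61.2 to 2.67 FPKM. CASP1 and PARP12 entered this test through A2780 OlaR alone and so had to be higher.

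Of 10 negative regulators of the pathway tested after knockdown, 6 were lower and 3 higher (90% called, all genes 84.7%). The 4 past 2-fold were all lower (40%, all genes 29.5% in either direction and 16.7% lower). IRF2, which competes with IRF1 for its sites, fell from 19.4 to 3.17 FPKM, and SOCS3, an inhibitor of JAK kinases, from 16.9 to 7.11 FPKM. SOCS1 fell from 1.84 to 0.205 FPKM and the phosphatase PTPN6 from 13.3 to 4.97 FPKM. SOCS1 entered the test through C13* shCON alone and so had to be lower. Of 9 tested in the olaparib comparison, 2 were higher and 5 lower (77.8% called, all genes 89.8%). SOCS3 alone was past 2-fold (6.35 and 15.0 FPKM), 11.1% beside 35.7% of all genes.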

How the data were processed

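The authors sequenced mRNA in 150-bp paired reads, mapped it to hg38 with TopHat and counted genes with HTSeq. The values used are the FPKM the authors deposited as 1 table of 31 libraries, whose tool, annotation and use of strand were not given in the sources used here. FPKM hold no read totals, so no counting error is given. Of 19225 entries, 4 with repeated symbols were left out, and every column belonged to a labelled library. Each comparison used its own 2 groups in limma 3.58.1 (R 4.3.3; eBayes with trend) on log2(FPKM + 1). Tests were two-sided and p was adjusted by Benjamini-Hochberg over the genes that reached 1 FPKM in a number of libraries equal to the smaller group's size. Fold changes on that scale understate changes of low genes. Single genes also had exact permutation tests on the mean log2(FPKM + 1), counting regroupings with at least as large an absolute difference. Simulated data served to test the limma fits. Positions and overlaps were taken from GENCODE 44. Values of each group are given for the 12 largest changes past 2-fold without overlap in each comparison and for the transcription factors. Members, lists, library ranges and tests were chosen with earlier results of these data known. Alternatives covered pseudocount, filter, scaling, 1 fit of all groups, replicate block, library ranges, threshold and, added after seeing the data, the C13* groups without shCON replicate 1. Python 3.11.15, pandas 2.3.3, numpy 2.4.6 and matplotlib 3.10.9 were used.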

Additional observations from a re-analysis of the deposited data

Results flagged for a closer look

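In 7 of 122 sets of ISG values within a group (5.74%), the highest or lowest library stood apart from the others by Dixon's criterion, which chance meets in about 1 of 20 sets. Of these 7, 4 were in A2780 replicate 8. There IFI35 had 27.2 FPKM with 31.1 FPKM in the nearest library, DHX58 had 5.997 FPKM with 7.70 FPKM in the nearest, DDX58 had 3.41 FPKM with 2.59 FPKM in the nearest and SAMD9 had 2.28 FPKM with 1.77 FPKM in the nearest. USP18 had 21.7 FPKM in A2780 replicate 7, with 23.3 FPKM in the nearest library. ISG20 had 1.71 FPKM in C13* shCON replicate 3, with 1.33 FPKM in the nearest. OAS3 had 26.3 FPKM in A2780 OlaR replicate 6, with 24.8 FPKM in the nearest.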

How the results depend on the processing

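Of the 34 ISGs tested after knockdown, 28 kept their direction and their side of the threshold under each of the 12 alternatives in which they were tested, and of the 35 in the olaparib comparison 29 did under each of 11. These counts include the 12 and 5 ISGs that entered the tests through 1 group alone, whose direction the filter had fixed. The same shares over all genes were not computed. With a filter at 5 FPKM, 21 ISGs were tested after knockdown and 21 called, beside 84.3% of all genes. Of these, 14 were past 2-fold, beside 27.0% of all genes, and the median log2 change was -0.62. In the olaparib comparison 23 were tested at this filter and 21 called, beside 89.9% of all genes. The median log2 change was -0.26 over the 23, reversed from 0.23 over the 35. The knockdown median was -1.35 and -1.38 with pseudocounts of 0.1 and 0.01, -0.79 with quantile normalization and -1.12 with libraries 1 to 3, and the olaparib median was 0.36 with quantile normalization and 0.35 with libraries 1 to 3. The causes were not tested. Single genes that reversed had not been called or lost their call. After knockdown ISG20 had a log2 change of 0.0405 with quantile normalization. In the olaparib comparison, IRF9 (-0.0475) and IFI35 (-0.0247) reversed with a common sum of FPKM, OASL (0.10) with quantile normalization, IRF9 (-0.18) and IFI35 (-0.16) with libraries 1 to 3, and IFI6 (0.0573) with libraries 4 to 8. IFI6, at an adjusted p of 0.0427 as reported, ranged in adjusted p up to 0.479. IFI35, ISG15, OAS3 and SAMD9 lost their call after knockdown with libraries 1 to 3 and IFIT1 with quantile normalization, and DDX58 and IFIT1 lost it in the olaparib comparison with libraries 4 to 8. The median log2 change of all genes in the olaparib comparison was -0.12, -0.18 with a common sum of FPKM and -0.03 with quantile normalization. With the replicate number as a block, 34 ISGs were called after knockdown (9885 of all genes) and 31 in the olaparib comparison (10960 of all genes), but the numbers do not pair the libraries, since same-numbered libraries deviated together at a mean r of -0.145 and -0.233, and 1 of 7 and 0 libraries correlated best with their own number. FPKM without read totals limit what can be said of genes near 0.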
